A study of Mus musculus with 2 samples.

Results

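The genes described here make, package, degrade and sense the inhibitory transmitter GABA, set the chloride gradient on which it acts, or anchor its receptors. They are Gad1, Gad2, Slc32a1, Abat, Slc12a2, Slc12a5, Gphn and Gabbr1, 8 of the 21887 protein-coding genes in the gene table. They were listed by name and not by a rule on measured values, though earlier results of these data were known. The assay was ATAC-seq: the Tn5 enzyme cuts accessible DNA and attaches adapters to it, and each insertion marks a site that the enzyme could reach. There was 1 library of adult Gabra3 knockout neural retina and 1 of wild-type littermate neural retina, both C57BL/6. Each library came from 20000 nuclei of flash-frozen tissue and was read as 75 bp single-end reads. Gabra3 codes for a GABA-A receptor subunit, alpha 3; the labels do not give the kind of allele, the sex, the exact age or the number of mice behind a library. With 1 library per genotype there is no replicate, so no test between genotypes was made and every ratio compares those libraries only. All intervals are 95% intervals and cover counting error alone.

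GABA is made from glutamate by glutamate decarboxylase and loaded into synaptic vesicles by a transporter in the vesicle membrane. Ionotropic GABA receptors pass chloride, so the response depends on the balance of chloride import and export by the cell. In the mammalian retina horizontal cells and many amacrine cells use GABA, while rod photoreceptors make up most of the nuclei.

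Counting well-mapped reads once per position and strand left 7646373 knockout and 7635799 wild-type insertions, of which 18.8% and 19.6% of the autosomal ones lay in 36840 open regions called on the summed libraries. Over the body of Gabra3 the knockout library held 121 insertions and the wild-type library 126, and within 500 bp of its annotated starts they held 0 and 2 to 3, where a count of 0 allows up to 3, so these counts are no check of the genotype. The tissue label was set against marker genes by the insertions within 500 bp of a gene end. The 6 rod markers held 13 to 137 in the knockout and 21 to 157 in the wild-type library. The 9 amacrine markers held 3 to 50 and 2 to 54, and the 5 horizontal cell markers 5 to 12 and 7 to 19. Of the retinal pigment epithelium markers Rpe65 (2 and 1), Tyr (1 and 4), Ttr (1 and 2) and Best1 (4 and 4) were near 0, while Mitf had 124 and 118. The 5 Muller glia markers held 1 to 100 and 4 to 111, the 4 microglia markers 0 to 10 and 1 to 12, and the 3 vascular markers 3 to 8 and 1 to 10. Of the 5 oligodendrocyte markers Mbp had 97 and 92, and the others 4 to 7 and 2 to 11. The 4 markers of other tissues held 0 to 8 and 1 to 8. These ends can miss an annotated start. At the annotated start with most insertions Nr2e3, the lowest rod marker by its end (13 and 21), held 87 and 90. The vascular marker Kdr held 10 and 17 there against 7 and 10, and the amacrine marker Meis2 held fewer, 21 and 29 against 50 and 54.

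The table of gene ends missed the annotated start of 4 of the 8 genes, so the starts were located first. RefSeq promoter entries on GRCm38.p6 matched 6 of the 8 genes, all on the plus strand, with 2 starts for Slc12a5. The entries put the start of Gad1 0.826 kb inside the low-coordinate gene end, that of Gad2 1.31 kb, that of Slc32a1 3.50 kb and that of Gphn 9.33 kb inside it. Gabbr1 and the first start of Slc12a5 coincided with the gene end, and the second start of Slc12a5 lay 7.14 kb inside. Abat and Slc12a2 had no entry, and their low-coordinate gene end was used. Among all 17492 protein-coding genes with an entry, 2355 (13.5%) had every start more than 500 bp from both table ends.

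The 250 bases before a start are shown for the most open annotated start, that of Gphn, for both starts of Slc12a5, and for the weakly accessible starts of the glutamate decarboxylase genes, from RefSeq on GRCm38.p6. All run 5′ to 3′ on the plus strand. Capitals mark the matches to the motifs searched on both strands, which were GGGCGG (a GC box), TGACGTCA (a cAMP response element), CCAAT (bound by the factor NF-Y), TATAAA (a core promoter motif), TAATCC (the core bound by the photoreceptor factor CRX), CAGCTG (an E-box) and TTCAGCACC (the left part of the site of the repressor REST). No marked matches overlap one another.
Gphn, chr12:78226405-78226654: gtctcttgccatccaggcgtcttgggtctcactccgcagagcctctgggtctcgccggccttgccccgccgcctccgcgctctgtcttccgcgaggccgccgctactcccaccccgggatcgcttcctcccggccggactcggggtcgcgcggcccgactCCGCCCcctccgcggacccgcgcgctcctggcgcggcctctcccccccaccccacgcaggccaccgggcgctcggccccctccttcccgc
Slc12a5 first start, chr2:164960596-164960845: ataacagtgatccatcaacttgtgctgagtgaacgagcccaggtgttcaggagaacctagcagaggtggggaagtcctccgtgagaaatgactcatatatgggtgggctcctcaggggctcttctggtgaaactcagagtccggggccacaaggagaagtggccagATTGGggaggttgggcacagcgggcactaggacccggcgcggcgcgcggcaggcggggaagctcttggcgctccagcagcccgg
Slc12a5 second start, chr2:164967738-164967987: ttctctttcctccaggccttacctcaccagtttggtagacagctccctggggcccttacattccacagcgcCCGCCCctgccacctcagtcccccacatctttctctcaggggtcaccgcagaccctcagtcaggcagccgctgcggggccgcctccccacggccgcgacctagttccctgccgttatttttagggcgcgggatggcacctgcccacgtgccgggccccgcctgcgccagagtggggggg
Gad1, chr2:70561879-70562128: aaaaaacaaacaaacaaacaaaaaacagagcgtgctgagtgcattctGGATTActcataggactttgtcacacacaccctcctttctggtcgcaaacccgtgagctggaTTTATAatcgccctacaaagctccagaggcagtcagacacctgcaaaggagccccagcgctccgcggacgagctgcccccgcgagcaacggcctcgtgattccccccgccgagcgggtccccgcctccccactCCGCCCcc
Gad2, chr2:22622077-22622326: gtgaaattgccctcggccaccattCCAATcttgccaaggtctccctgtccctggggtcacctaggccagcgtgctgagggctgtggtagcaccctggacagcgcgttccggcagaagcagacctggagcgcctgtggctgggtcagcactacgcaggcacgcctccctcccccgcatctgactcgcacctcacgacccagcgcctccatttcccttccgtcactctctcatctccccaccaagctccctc

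The 250 bases before the 7 annotated starts held 12 to 34 CG dinucleotides. Gphn had 34, above 95.5% of the 21263 annotated starts of protein-coding genes. Gad1 had 17, the second start of Slc12a5 and Gabbr1 16 each, Gad2 and the first start of Slc12a5 13 each, and Slc32a1 12. A GC box stood 90 bases before the start of Gphn, 179 before the second start of Slc12a5, 8 before that of Gad1, and 76 and 48 before that of Gabbr1; 42.6% of all 21263 stretches hold one. CCAAT stood 226 bases before the start of Gad2 and 84 before the first start of Slc12a5 (35.4% of all), and Gad1 held TATAAA 141 bases and TAATCC 203 bases before its start (11.6% and 5.82% of all). Slc32a1 held none of the motifs. A match is a description of the letters and not evidence that a factor binds there.

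Among starts with 11 to 19 CG dinucleotides, those of Gad1, Gad2 and Slc32a1 held fewer insertions than both starts of Slc12a5 and that of Gabbr1. The 5055 starts in this range had a median of 133 insertions over both libraries within 500 bp, with quartiles of 47 and 223. Gad1 and Slc32a1 had 21 each, above 12.2% of these starts, and Gad2 had 28, above 16.8%. The second start of Slc12a5 had 198, above 69.3%, and Gabbr1 and the first start of Slc12a5 had 90 and 89, above 37.1% and 36.8%. Gphn, among the 5048 starts with 20 to 56 CG dinucleotides, had 297, above 77.6%.

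**Figure D1:**
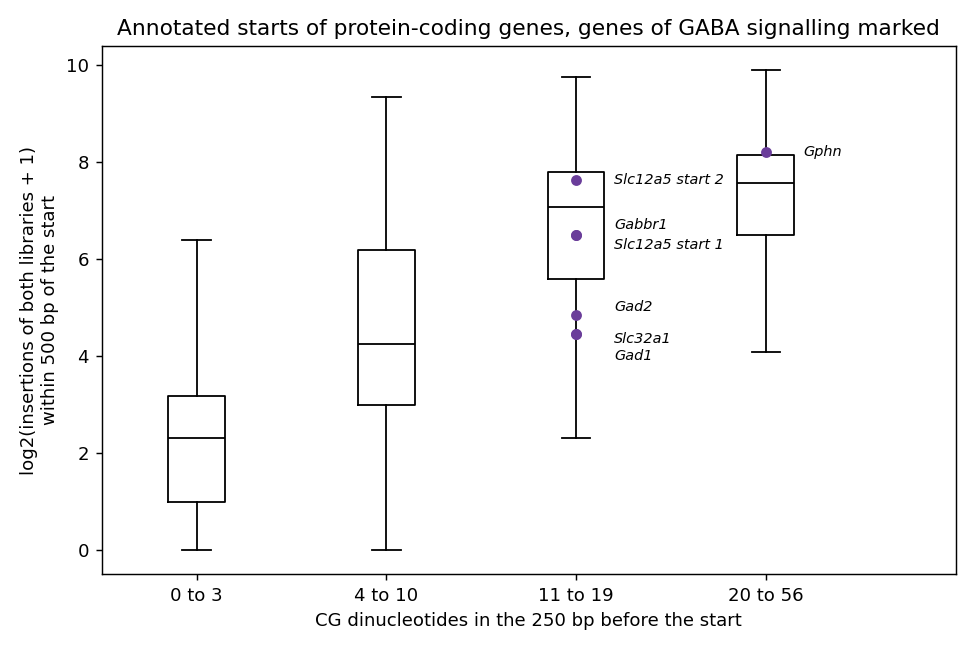
Insertions of both libraries within 500 bp of each annotated start, as log2(insertions + 1), for starts grouped by the number of CG dinucleotides in the 250 bp before them; boxes show quartiles and median, whiskers reach to 1.5 times the box height, and purple points are the starts of the genes described. Gad1, Gad2 and Slc32a1 lie below the box of their group, and the second start of Slc12a5 lies above its group's median.

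The levels at the starts spanned a wide range, and the highest windows came in the same order in both libraries. All windows reach 500 bp either side, so their counts can be compared between genes per length. At the gene end of Slc12a2, which encodes the chloride importer NKCC1, the knockout library held 183 insertions and the wild-type library 183 (each 157 to 212). At the start of Gphn, which encodes gephyrin, the scaffold under inhibitory receptors and an enzyme of molybdenum cofactor synthesis, the counts were 143 (121 to 168) and 154 (131 to 180). The second start of Slc12a5, the gene of the neuronal chloride exporter KCC2, held 88 (70.6 to 108) and 110 (90.4 to 133). These 3 windows were the most open in each library.

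Gabbr1, which encodes a subunit of the metabotropic GABA-B receptor, held 50 (37.1 to 65.9) in the knockout and 40 (28.6 to 54.5) in the wild-type library. The first start of Slc12a5 held 48 (35.4 to 63.6) and 41 (29.4 to 55.6). At the gene end of Abat, whose product GABA transaminase breaks GABA down in mitochondria, the counts were 21 (13.0 to 32.1) and 20 (12.2 to 30.9). The 3 genes of GABA synthesis and vesicular loading came last in both libraries.

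Gad2, which encodes the decarboxylase isoform bound to synaptic vesicles, held 9 (4.12 to 17.1) in the knockout and 19 (11.4 to 29.7) in the wild-type library. Gad1, which encodes the isoform found throughout the cell, held 11 (5.49 to 19.7) and 10 (4.80 to 18.4). Slc32a1, which encodes the vesicular GABA transporter, held 14 (7.65 to 23.5) and 7 (2.81 to 14.4). In bulk tissue fewer open cells and less accessibility per cell cannot be told apart; the ranges of the amacrine and horizontal cell markers are given above, and their part in these levels was not tested.

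The order of neighbours was resolved only in part. Ranked by the summed count, the interval of Slc12a2 overlapped that of Gphn in both libraries. The interval of Gphn lay above that of the second start of Slc12a5 in the knockout library and overlapped it in the wild-type library. The second start of Slc12a5 lay above Gabbr1 in both. Gabbr1 and the first start of Slc12a5 overlapped each other in both, and the first start of Slc12a5 lay above Abat in the knockout library and overlapped it in the wild-type library. From Abat downwards all neighbouring intervals overlapped. By count, Gabbr1 and the first start of Slc12a5 changed places between the libraries, and below Abat the order was reversed. In the knockout library Slc32a1 held 14, Gad1 11 and Gad2 9, and in the wild-type library Gad2 held 19, Gad1 10 and Slc32a1 7. Among all annotated starts, which had a median of 16 knockout and 17 wild-type insertions, Gphn stood above 91.4%, Gad2 above 48.0% and Gad1 and Slc32a1 above 43.9%. Slc12a2 and Abat were measured at a gene end. Their counts stood above 95.9% and 52.4% of the annotated starts, and above 96.0% and 55.2% of the more open gene ends.

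**Figure D2:**
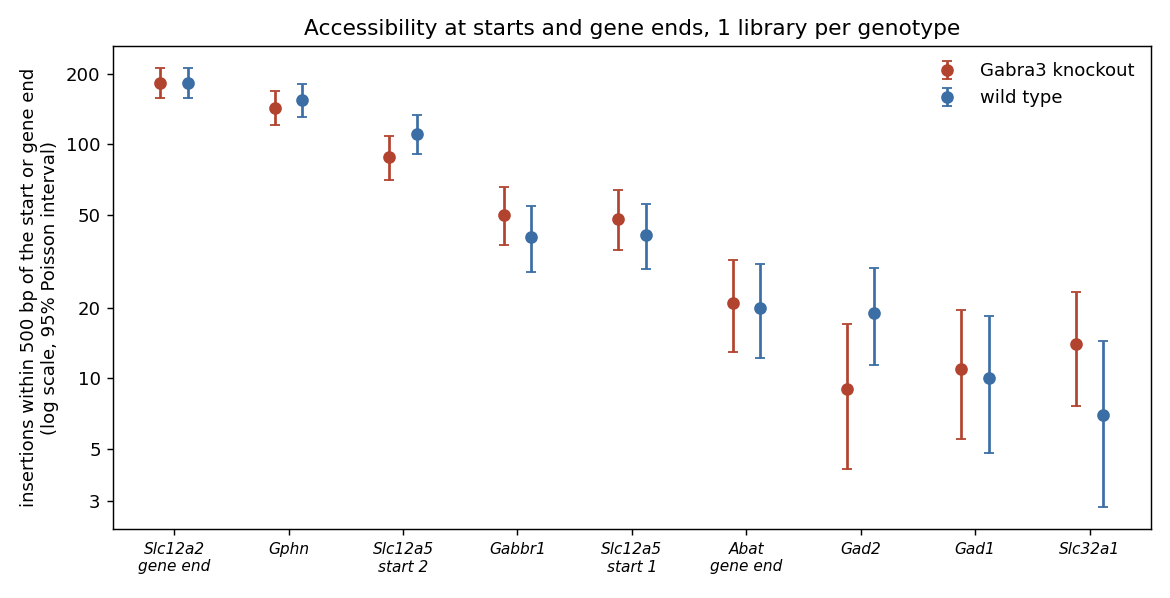
Insertions within 500 bp of each annotated start, or of the low-coordinate gene end for Slc12a2 and Abat, in the Gabra3 knockout library (red) and the wild-type library (blue), on a log scale with exact 95% Poisson intervals. The windows are ordered by summed count, from 183 and 183 at Slc12a2 to 14 and 7 at Slc32a1. The lowest knockout count is 9, at Gad2. The intervals of the libraries overlap at each of the 9 windows.

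In windows of 500 bp either side no start stood apart between the libraries beyond counting error: 0 of the 7 annotated starts had an interval that left out 0, against 3.46% of the 12092 annotated starts with at least 20 insertions summed. Each ratio is the log2 of knockout over wild-type insertions, scaled to the autosomal insertions in open regions, with the exact interval of the split. The ratio was 0.06 (-0.24 to 0.36) at the gene end of Slc12a2 and -0.05 (-0.39 to 0.29) at the start of Gphn, so at these windows the interval lay within 1.5-fold. Slc12a5 had -0.26 (-0.68 to 0.15) at its second start and 0.28 (-0.34 to 0.92) at its first. Gabbr1 had 0.38 (-0.25 to 1.02) and Abat 0.13 (-0.83 to 1.09).

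The ratios of Slc32a1, Gad2 and Gad1 had wide intervals. Slc32a1 had 1.01 (-0.35 to 2.61), Gad2 -0.98 (-2.35 to 0.19) and Gad1 0.19 (-1.18 to 1.59), so that changes of 2-fold either way could not be resolved at this depth for Gad1. By a limit of 2-fold, 1 of the 7 annotated starts, that of Slc32a1, counted as higher in the knockout library and 0 as lower, against 0.719% and 0.67% of the 12092 annotated starts tested. That call rested on 14 against 7 insertions. Scaled to all autosomal insertions, Slc32a1 fell below the limit at 0.95 and Gad2 passed it at -1.04. The median of the 7 starts was 0.19, and that of all starts tested was 0.02. With a window of 1000 bp either side, Gad2 held 11 and 25 insertions (-1.09, -2.30 to -0.05) and was the 1 of 7 past 2-fold, against 0.778% of 14136 starts lower by that rule and 1.42% with an interval below 0.

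**Figure D3:**
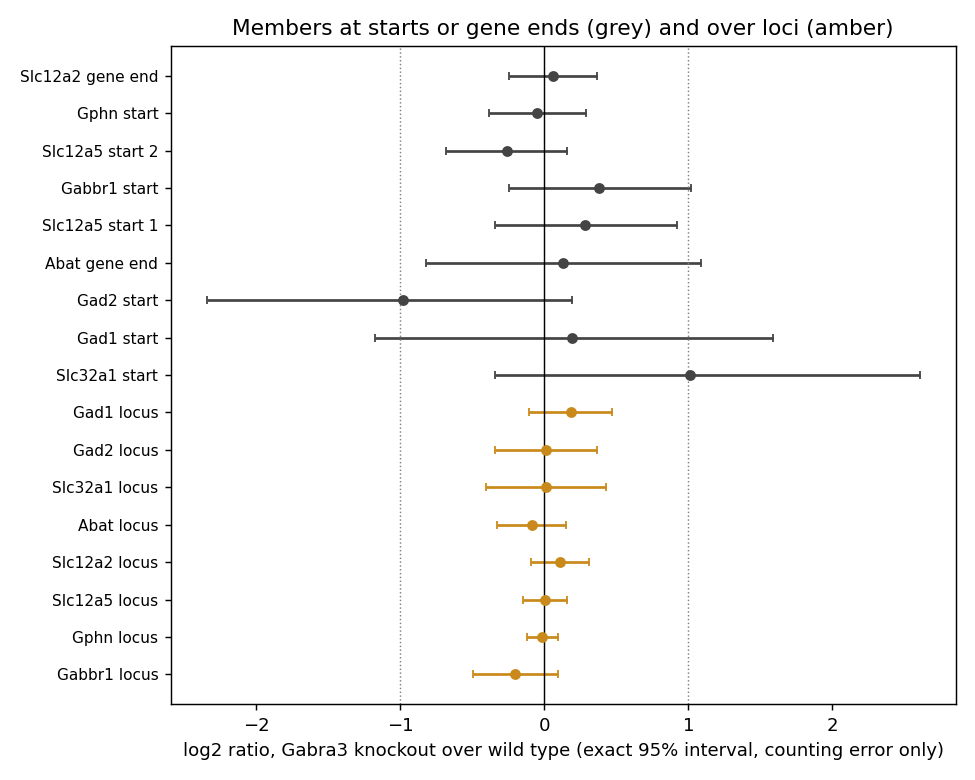
Log2 ratio of knockout over wild type with its exact 95% interval, counting error only, for the 9 start or gene-end windows (grey, scaled to insertions in open regions) and the 8 loci (amber, scaled to all autosomal insertions); dotted lines mark 2-fold. All 17 intervals include 0, and the widest belong to Slc32a1, Gad1 and Gad2.

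Measured at the ends of the gene table alone, 4 of the 8 genes had at least 20 insertions summed at their more open end. These were Abat, Slc12a2, Slc12a5 and Gabbr1, and 0 of the 4 were past 2-fold, against 1.55% of 11893 genes. At the ends of Gad1 (9 and 6), Gad2 (0 and 4), Slc32a1 (3 and 6) and Gphn (5 and 2) the counts were too low for a ratio. At the opposite end Gad1 had 3 and 4, Gad2 1 and 0, Slc32a1 3 and 5, Abat 1 and 2, Slc12a2 0 and 0, Gphn 0 and 3 and Gabbr1 5 and 7. Only Slc12a5 had at least 20 there, with 23 knockout and 11 wild-type insertions (1.09, 0.03 to 2.31). By the 2-fold rule it counted as higher, against 4.1% of the 1171 opposite ends tested, and its interval lay above 0, as did 2.05% of them. The window ends before Ncoa5, the next gene, which begins 622 bp further on, and no open region was called there. With all autosomal insertions as the scale the ratio was 1.03 (-0.03 to 2.25), and with 1000 bp either side it was 0.77 (-0.06 to 1.66).

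The accessible DNA of each start had its own shape. At Slc12a2 and Gphn the signal formed 1 broad block in both libraries, called as regions of 1300 bp and 1400 bp. The Slc12a2 region (chromosome 18, 57877851 to 57879150) held 199 knockout and 205 wild-type insertions, a ratio of 0.02 (-0.27 to 0.31). The Gphn region (chromosome 12, 78225701 to 78227100) held 186 and 207 (-0.09, -0.39 to 0.20). Both exceeded over 97% of all open regions in summed count (97.7% and 97.4%).

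Gabbr1 had an open region of 650 bp at its start (chromosome 17, 37045701 to 37046350; 41 and 32 insertions, 0.41, -0.29 to 1.13). A further one of 350 bp lay 4.66 kb inside the gene (37050451 to 37050800; 13 and 18, -0.40, -1.56 to 0.70). Abat had a single region of 400 bp at its low-coordinate end (chromosome 16, 8513201 to 8513600), with 14 and 13 insertions.

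**Figure D4:**
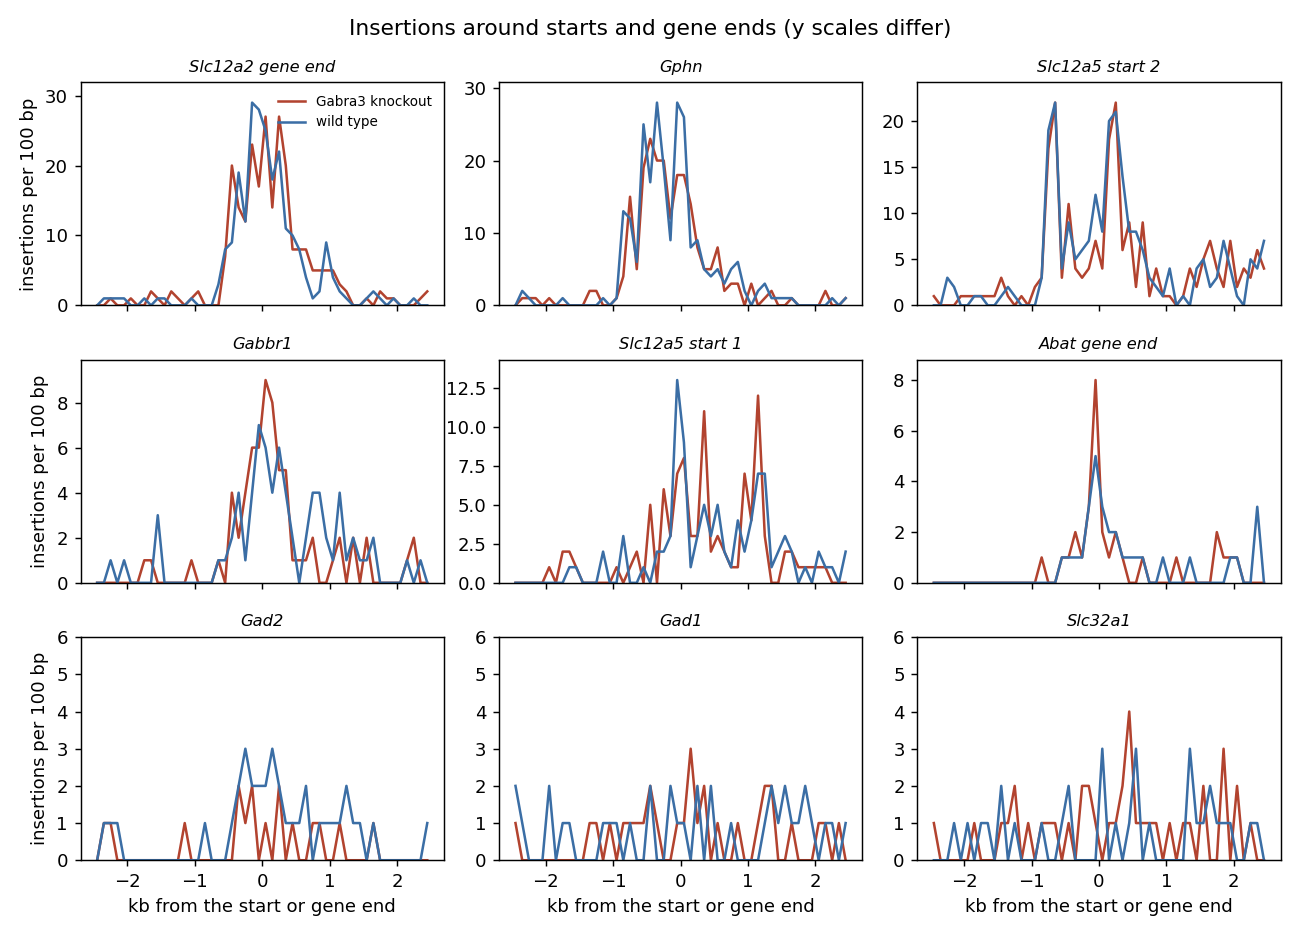
Insertions per 100 bp from 2.5 kb below to 2.5 kb above each start or gene end, in the knockout (red) and wild-type (blue) libraries, with a separate vertical scale for each panel. Slc12a2 and Gphn show a broad block in both libraries, the second start of Slc12a5 shows a pair of peaks either side of the start, and Gad1, Gad2 and Slc32a1 stay at 4 or fewer insertions per bin.

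Slc12a5 was the most accessible of the 8 loci per kb. The gene is known to use alternative first exons, which give KCC2 isoforms with different N-termini. Over the gene and 5 kb either side (chromosome 2, 164955846 to 165004731) there were 14.7 knockout and 14.6 wild-type insertions per kb, above 92.5% of all loci by the summed density. The centres of all 5 open regions lay within the first 10.1 kb of the gene, and the regions took up 34.4% of the knockout and 36.0% of the wild-type insertions of the locus. The strongest covered the second start (164967801 to 164968550) with 71 and 96 insertions (-0.37, -0.84 to 0.08), which was also the largest ratio in size among the 5.

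A narrower region just before that start (164967101 to 164967550) held 52 and 52. The region at the first start (164960601 to 164961400) held 43 and 39, the one after it (164961701 to 164962150) 27 and 24, and the last (164970601 to 164971200), 2.91 kb beyond the second start, 54 and 47. The second start was more open than the first in each library, since 88 insertions (70.6 to 108) stood against 48 (35.4 to 63.6) in the knockout and 110 (90.4 to 133) against 41 (29.4 to 55.6) in the wild-type library.

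Gad1, at 40.7 kb close in length to the 38.9 kb of Slc12a5, held no open region at its start. Over the locus (chromosome 2, 70556303 to 70607014) there were 4.24 knockout and 3.73 wild-type insertions per kb, against a median of 4.92 and 4.87 over all protein-coding loci. Its 2 open regions were weak. The first lay 3.83 kb before the annotated start (70558151 to 70558450) with 11 and 6 insertions, and the other 34.0 kb beyond it (70596001 to 70596200) with 6 and 3. The lncRNA gene Gad1os, named after the values were seen, overlaps the start of Gad1, so its accessibility cannot be separated from that of Gad1.

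**Figure D5:**
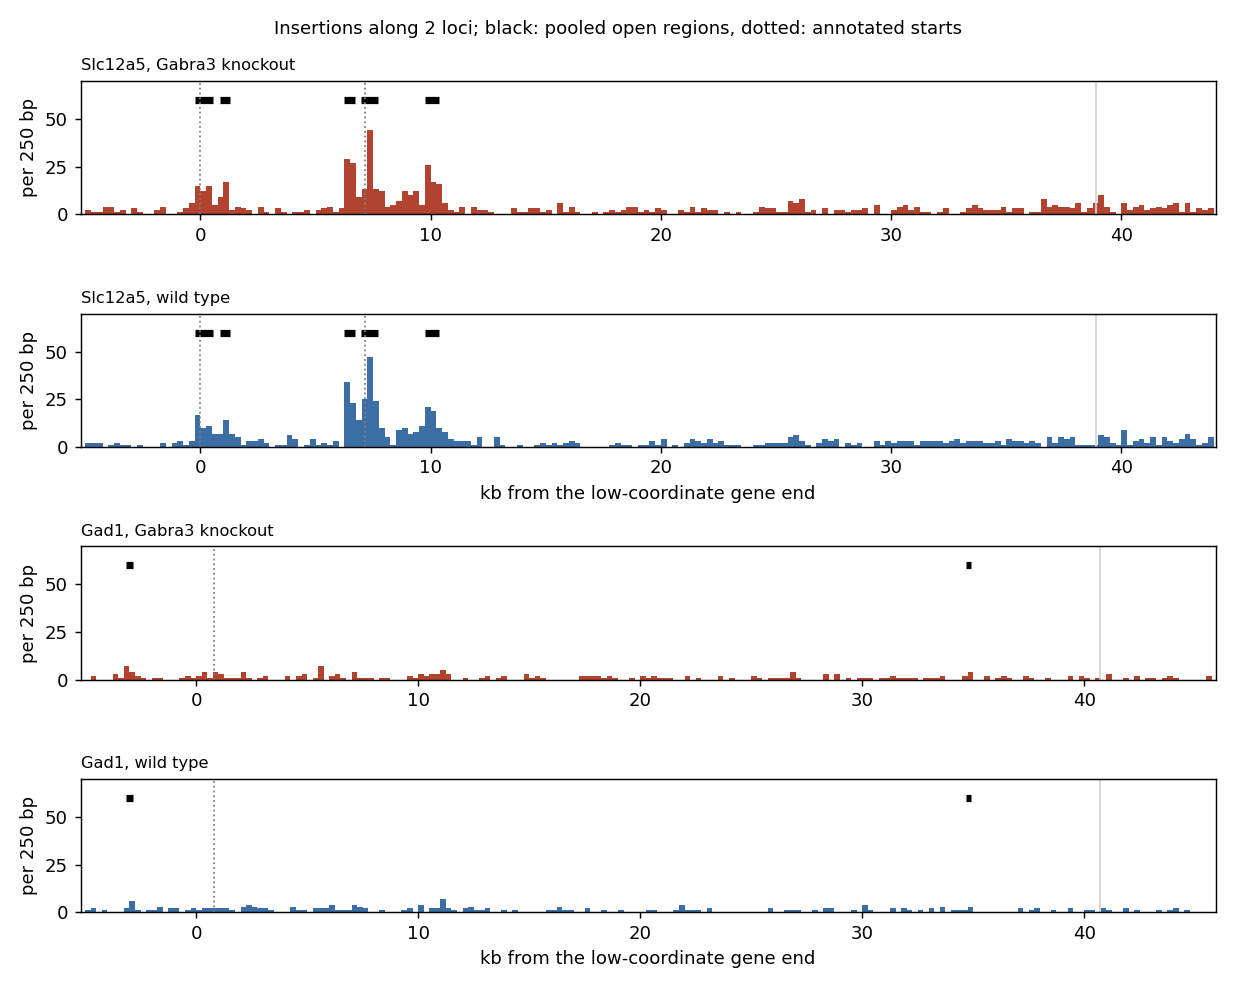
Insertions per 250 bp along Slc12a5 (upper pair) and Gad1 (lower pair) with 5 kb either side, in the knockout (red, above) and wild-type (blue, below) libraries on 1 vertical scale; black bars are open regions called on both libraries, dotted lines annotated starts, and the pale line the high-coordinate gene end. The tallest Slc12a5 bin holds 44 knockout and 47 wild-type insertions, and no Gad1 bin holds more than 7 in either library.

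Over whole loci the libraries were close for every gene. Counted over the gene body with 5 kb either side and scaled to all autosomal insertions, the ratio was 0.18 (-0.10 to 0.47) for Gad1 with 215 and 189 insertions, 0.01 (-0.35 to 0.36) for Gad2 with 136 and 135, and 0.01 (-0.40 to 0.43) for Slc32a1 with 100 and 99. Abat had 281 and 298 (-0.09, -0.33 to 0.15). The chloride transporter genes had 430 and 398 for Slc12a2 (0.11, -0.09 to 0.31) and 719 and 716 for Slc12a5 (0.00, -0.15 to 0.16).

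Gphn, the longest of these genes at 467 kb, had 1458 and 1469 (-0.01, -0.12 to 0.09), the narrowest interval of the 8. Gabbr1 had 183 and 210 (-0.20, -0.49 to 0.09). Of the 8 loci 0 were past 2-fold, against 0.659% of 20330 loci, and 0 had an interval that left out 0, against 6.45%. The median ratio was 0.01 over the 8 and 0.00 over all loci tested.

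Gad2 had the lowest density of these loci and no open region. It held 1.64 knockout and 1.63 wild-type insertions per kb, below the genome means of 2.81 and 2.80. Slc32a1, a short gene of 8.49 kb, had no open region either, but its locus held 5.41 and 5.35 insertions per kb, above 53.9% of all loci. The lncRNA gene Gm14204, also named after the values were seen, overlaps its low-coordinate part. Gm14204 ends at 158610723, inside the window of 500 bp either side of the annotated Slc32a1 start at 158610758. In that window its accessibility cannot be separated from that of Slc32a1. The 5 kb beside the genes also take in ends of Myo3a at Gad2, Mmp9 and Ncoa5 at Slc12a5 and Gm6657 at Gphn. Reads with a mapping quality under 10, which were left out, made up 6.70% and 6.78% of the reads over Gphn, 3.34% and 3.47% over Abat and under 3% over each of the others.

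In all 8 loci there were 14 open regions. Past 2-fold were 0 of the 10 with 20 or more insertions, against 2.81% of 24258 open regions, and 0 had an interval that left out 0, against 3.11%. Their median ratio was 0.11, and that of all regions tested was -0.01. The intervals of all 14 included 0. The share of a locus' insertions that lay in open regions differed between the genes. It was 46.3% and 51.5% at Slc12a2, 29.5% and 23.8% at Gabbr1, 13.7% and 14.8% at Gphn, 7.91% and 4.76% at Gad1, 4.98% and 4.36% at Abat, and 0% at Gad2 and Slc32a1. This share depends on the length of the locus. The start region of Gphn, a gene of 467 kb, held 186 and 207 insertions, and that of Slc12a2, of 68.3 kb, 199 and 205.

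In the 5 kb beyond the high-coordinate end of Slc12a2 there were 18 knockout and 7 wild-type insertions (1.30, 0.03 to 2.86), and beyond that of Gphn 27 and 14 (0.92, -0.04 to 1.99), scaled to all autosomal insertions. The same stretch held 13 and 8 at Abat, 14 and 11 at Gad1, 73 and 70 at Slc12a5, 25 and 27 at Slc32a1, 7 and 8 at Gad2 and 14 and 19 at Gabbr1. Of the 7 genes with 20 or more insertions there, Slc12a2 alone was 2-fold higher in the knockout library, against 1.27% of 15571 genes, and alone had an interval above 0, against 1.53%. This stretch was counted after the other values had been seen.

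Other genes of GABA signalling, a list of 52, were measured at the more open end of the gene table, where 37 reached 20 insertions. None passed 2-fold in either direction (0 higher and 0 lower in the knockout), against 0.925% and 0.622% of all genes tested, and 0 had an interval that left out 0, against 3.16%. The median ratio of the 37 was -0.08, and that of all genes tested was 0.02. Such ends can miss an annotated start. Neither the 2-fold rule nor the interval was counted at the starts of this list, so the counts of 0 cover the gene ends only. At the annotated start with most insertions Clcn2 held 22 and 42, against 80 and 75 at its end, and Slitrk3 13 and 12. Slc12a7 held 26 and 20 there against 2 and 4, and Kcnj3 18 and 28 against 1 and 0. Trak2, of the scaffold and trafficking group, held 180 and 200 there against 60 and 45 at its end. Glul held 100 and 111 at both. These genes were named here after the values were seen.

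Among metabolic genes Glud1, which encodes glutamate dehydrogenase, held 218 and 231 insertions, and Glul, the glutamine synthetase gene, 100 and 111. Aldh9a1, an aldehyde dehydrogenase gene, held 96 and 115. Aldh5a1, whose product oxidizes the semialdehyde left by GABA transaminase, held 45 and 39 (0.26, -0.39 to 0.92).

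The chloride group was led by Oxsr1 (238 and 263), a kinase that phosphorylates cation-chloride cotransporters, and by Clcn3 (171 and 196), a chloride/proton exchanger gene. The largest ratio in size there was that of Slc12a3, the thiazide-sensitive cotransporter gene, with 7 and 13 (-0.79, -2.40 to 0.60). In the scaffold and trafficking group Zdhhc3, a palmitoyltransferase gene, held 141 and 136, Gabarapl2 held 114 and 119, and Slitrk3, a synaptic adhesion gene, 10 and 18 (-0.76, -2.07 to 0.40). Of the GABA-B genes Gnao1, an inhibitory G protein gene, held 101 and 101, Kctd8, an auxiliary subunit gene, 43 and 37, and Rgs7, a regulator of G protein signalling, 22 and 32 (-0.47, -1.33 to 0.35).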

How the data were processed

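The submitters' processing notes name Trimmomatic 0.33, BWA, bedtools 2.23.0 and GRCm38 (mm10); which tool did what, and the version of BWA, is not given in the sources used here. Each line of the deposited tables is an aligned read with its coordinates, and the score that the authors deposited with it is a mapping quality of 0 to 37, with no normalization. Read 5-prime ends with a quality of at least 10 were shifted by 4 or -5 bp and kept once per position and strand, which removed 9.41% of such knockout and 11.0% of such wild-type reads. Both libraries were summed to call open regions in 200 bp windows moved by 50 bp, at a Poisson p below 1e-05 over the genome mean or, if higher, the mean of 10000 bp around, and joined within 150 bp. Ratios used a pseudocount of 0.5 and Clopper-Pearson intervals, and counts exact Poisson intervals; there were no molecular identifiers. Python 3.11.15, NumPy 2.4.6, SciPy 1.17.1 and pandas 2.3.3 were used, and scripts were tested on simulated data.

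The genes, lists and settings were chosen with earlier results of these data known. All 8 genes were named at every measure, with protein-coding genes that overlap their loci. In each group of the longer list, the rule named the 2 genes with the highest counts and the 1 whose ratio was largest in size among those with at least 20 insertions. The values of 1 group of that list are not reported here. Annotated starts and opposite gene ends were added after the gene ends had been seen. Other scalings, windows, filters and pseudocounts were tried.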

Additional observations from a re-analysis of the deposited data

How the results depend on the processing

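Each of the 150 single ratios recomputed under another setting stayed inside its interval as reported. The settings reuse the same reads and many intervals are wide, so this is a weak check. Whether an interval left out 0 did change. That of the Gad2 start left it out with 1000 bp either side (-2.30 to -0.05). That of the opposite end of Slc12a5 took it in with all autosomal insertions, with 1000 bp either side and with all reads kept. With at least 20 insertions summed, no gene was past 2-fold over its locus, at its more open gene end or in an open region under any setting tried. Between 11 and 16 open regions were called. The count of 1 annotated start past 2-fold became 0 when scaled by the trimmed mean of M values, with 250 bp either side and with a pseudocount of 5. It was also 0 with at least 100 insertions summed, which is no check. By that rule 0 of all 7813 starts tested passed 2-fold, and the starts of Slc32a1 and Gad2 were not among them. The count stayed 1 with all autosomal insertions and with 1000 bp either side, but the gene was then Gad2 and not Slc32a1. With 250 bp either side Gad2 held 3 and 11 insertions, a ratio of -1.66 (-4.30 to 0.11), and fell under the floor of 20 insertions. The ratio of Gad2 ranged from -1.66 to -0.72 and that of Slc32a1 from 0.71 to 1.16. The count of 1 opposite gene end past 2-fold, that of Slc12a5, became 0 with 250 bp or 1000 bp either side and with a pseudocount of 5. With 250 bp this end held 13 and 4 insertions, a ratio of 1.64 (0.06 to 3.83). It left the count only because fewer than 20 insertions were summed. The ratio was 0.77 with 1000 bp and 0.87 with the pseudocount of 5. Scaling to open regions raises every ratio by 0.06 over scaling to all autosomal insertions, which turned the direction of the locus ratio of Gphn to 0.05. Other locus ratios near 0 also changed direction under some setting, with ranges of -0.04 to 0.07 for Gad2, -0.03 to 0.08 for Slc32a1 and -0.03 to 0.07 for Slc12a5. The gene-end ratio of Slc12a2 ranged from -0.23 to 0.09 and the start ratio of Gphn from -0.29 to 0.11. Annotated starts and opposite ends were added after seeing the data. With 1 library per genotype, no library could be left out. No paired analysis was possible because each genotype has 1 library and the result comes from no test. At 21 to 28 insertions summed, the starts of Gad1, Gad2 and Slc32a1 allow differences of over 2-fold to go undetected.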

Other observations

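The insertions of Gad2 were also counted by position along the gene. Within 1 kb of the start there were 11 knockout and 25 wild-type insertions (log2 ratio -1.15, -2.36 to -0.11, scaled to all autosomal insertions), and from 1 to 10 kb beyond it 11 and 23 (-1.03, -2.25 to 0.03). In the part of the gene further than 10 kb beyond the start the counts were 92 and 70 (0.39, -0.07 to 0.86), and in the 5 kb below and above the gene they were 14 and 9, and 7 and 8. The stretch within 1 kb of the start holds the insertions already given for the window of 1000 bp either side, on another scale. These stretches were compared after the counts had been seen, and the share of all genes with such a split was not counted.

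Of the 2355 genes whose annotated starts all lie over 500 bp from both ends of the gene table, 1509 (64.1%) had more insertions at an annotated start than at their more open table end, as Gad1, Gad2, Slc32a1 and Gphn did.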
